A study of Caenorhabditis elegans with 6 samples.

Results

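The genes described are those of the mitochondrial ribosome, taken as every row of the deposited count table whose WormBase symbol is mrpl- or mrps- followed by a number. The rule found 69 genes among 46756 rows, 40 named for the large subunit (mrpl-) and 29 for the small subunit (mrps-). The gene name table lists 70 such symbols, and mrpl-42 was not analysed here. The data are RNA-sequencing libraries of whole Caenorhabditis elegans hermaphrodites on adulthood day 2, 3 from worms grown as a population of 10 on a plate (population worms) and 3 from worms grown 1 to a plate (solitary worms). The study made these libraries to look for receptors through which ascaroside pheromones alter the release of exophers, large vesicles shed by muscle. All worms were of the strain ACH93 and were fed Escherichia coli OP50. In both conditions they carry a wrmScarlet-tagged proteasome subunit (rpn-5) and a GFP marker of the outer mitochondrial membrane made from part of TOMM-20, both driven in body wall muscle by the myo-3 promoter. The labels call the libraries of a condition biological replicates and say no more about their origin, so p-values measure the spread between these libraries.

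The mitochondrial ribosome translates the few proteins encoded in mitochondrial DNA, which are membrane-embedded subunits of the respiratory chain and the ATP synthase. Its ribosomal RNAs come from the mitochondrial genome, while all of its proteins are encoded in the nucleus, made in the cytosol and imported. Many of these proteins have a counterpart in the bacterial ribosome, and others exist only in mitochondria. In C. elegans, knockdown of mrps-5 and of other genes of the family is known to extend lifespan and to activate the mitochondrial unfolded protein response.

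In edgeR, no gene of the family differed between population worms and solitary worms at an adjusted p under 0.05. Of 69 genes tested, 0 passed the quasi-likelihood test of edgeR (p adjusted over all 18428 genes by Benjamini and Hochberg), which 44 genes (0.239%) passed. At an unadjusted p under 0.05 there were 13 genes of the family, all 13 lower in population worms, beside 6.71% of all tested genes in that direction. In DESeq2 only mrps-18A passed (log2 fold change -0.20, adjusted p = 0.0356), where 435 genes passed (2.36% of those tested). With no minimum on counts, edgeR called mrps-18A and mrps-14, where 745 genes (2.94%) passed. RNA was taken from whole worms, so fewer cells of a type and less RNA per cell cannot be told apart.

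The differences were small and mostly in the same direction. On TMM (trimmed mean of M-values) scaling, which sets the libraries to a common scale, 60 of 69 genes had a lower estimate in population worms than in solitary worms and 9 a higher one, beside 49.4% of all tested genes lower. This fell to 55 genes with scaling to total counts, and to 36, beside 45.6% of all genes, when the dependence on gene length described below was removed. The median log2 fold change was -0.09, a difference of -5.88%, against 0.00 for all tested genes. The estimates lay between -0.25 (mrpl-36) and 0.12 (mrpl-45), and 37 of them were within 0.1 of 0. All 69 of the 95% intervals lay within 0.5 of 0 on the log2 scale, from a lowest bound of -0.44 to a highest of 0.26. In 30 genes the 3 population libraries all lay below the 3 solitary ones, and in 0 genes all above, beside 9.83% and 8.51% of all tested genes.

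**Figure D1:**
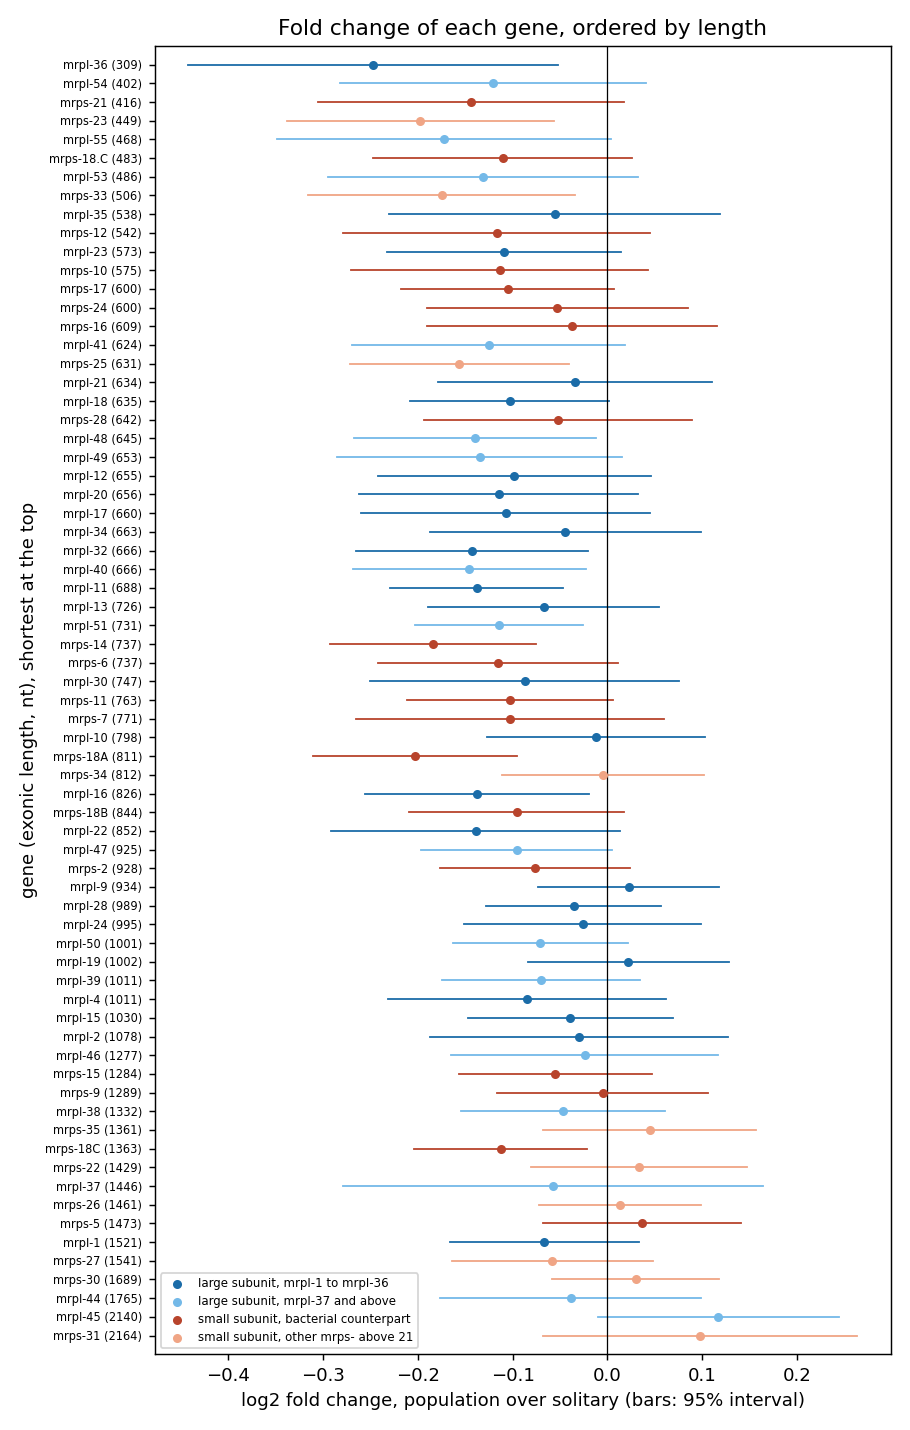
Log2 fold change of population worms over solitary worms (x axis) for each of the 69 genes, with its 95% interval as a bar; genes run from the shortest at the top to the longest at the bottom, with exonic length in nucleotides after the symbol, and colours mark the subunit groups. The points move from the lower side of 0 among short genes, led by mrpl-36 at -0.25, to both sides of 0 among long genes, with mrpl-45 at 0.12.

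The family was well covered. Library totals lay between 55176436 and 62794403 counts, and a gene of the family had between 795 and 17440 counts in a library. Together these genes took 0.330%, 0.338% and 0.332% of the counts in the population libraries, against 0.337%, 0.341% and 0.351% in the solitary ones. The ranges of this share overlapped, since the population library 2 lay above the solitary library 1. The median coefficient of variation of a gene within a condition was 3.74% in population worms and 3.88% in solitary worms, the most variable being mrpl-37 in population worms (14.2%) and mrpl-36 in solitary worms (11.5%). Whole-worm markers of muscle, intestine, epidermis, neurons, germline, pharynx and embryos were counted in both conditions. The summed level of the 3 epidermal markers found lay between 131 and 181 CPM (counts relative to the TMM-scaled library size) in population worms and between 190 and 219 CPM in solitary worms, none of the 3 passing the test, and its part in the values of the family was not tested. The sums for the other 7 marker lists overlapped between conditions, and the sperm list was near the limit of detection, with 2 of 5 genes counted in all libraries and ssp-16 at 0.

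Levels of the genes were compared per length, as TMM-scaled CPM per kilobase of exon averaged over the 6 libraries. The median level was 52.4 CPM per kilobase and the middle 50% of the genes lay between 40.8 and 68.1, a 1.67-fold range, with 61 of 69 genes within 2-fold of the median. The 78 cytosolic ribosomal protein genes had a median level of 1370 CPM per kilobase, 26.1-fold that of the mitochondrial family. The 12 genes encoded in mitochondrial DNA had a median of 330 CPM per kilobase in these libraries of oligo(dT)-enriched RNA. The part of that enrichment in their level was not tested. Median levels of the 4 groups of the family lay close together. They were 55.4 CPM per kilobase for large subunit genes numbered as in bacteria (mrpl-1 to mrpl-36), 50.4 for large subunit genes from mrpl-37 on, 55.0 for small subunit genes with a bacterial counterpart and 50.8 for the other small subunit genes.

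**Figure D2:**
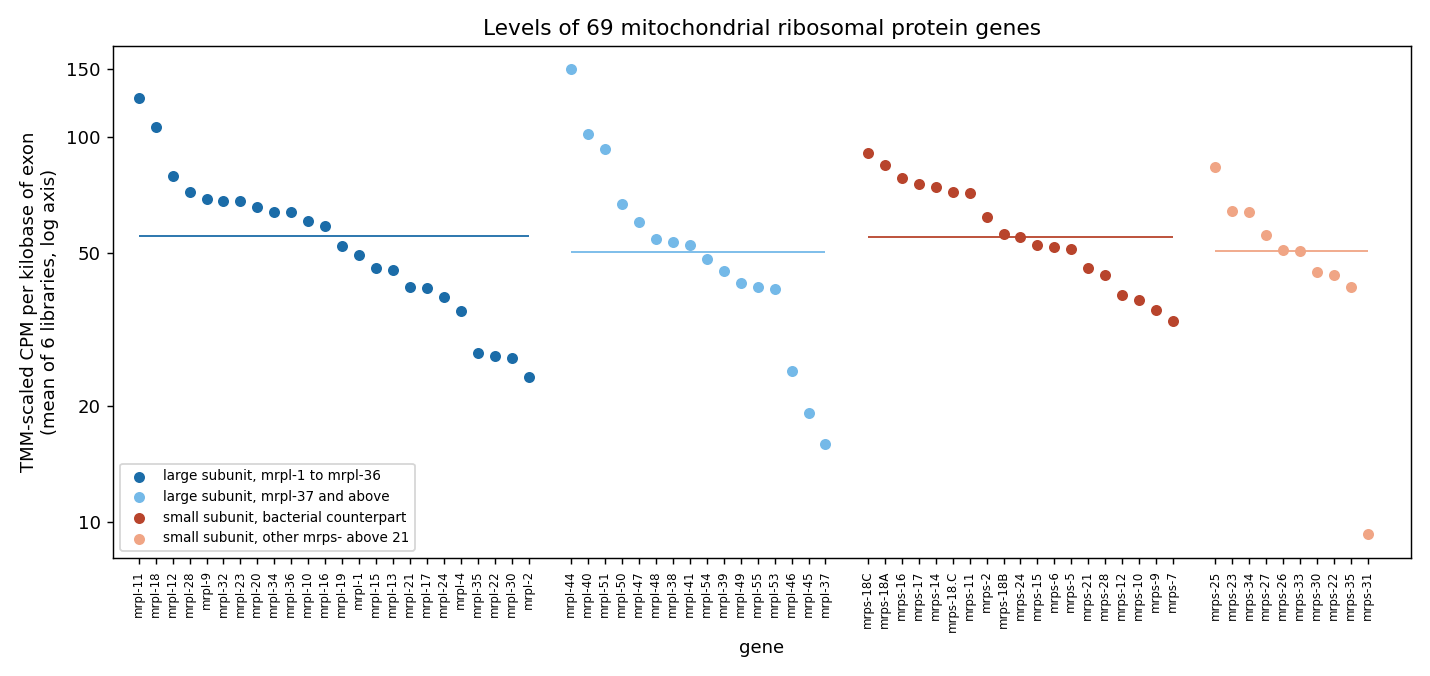
Level of each gene in TMM-scaled CPM per kilobase of exon, the mean of 6 libraries, on a log axis; genes are sorted by level within the 4 subunit groups and lines mark the group medians. The medians lie between 50.4 and 55.4, while mrpl-44 (150) stands highest and mrps-31 (9.30) lowest.

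The highest levels belonged to mrpl-44, mrpl-11 and mrpl-18, at 150, 127 and 106 CPM per kilobase. The gene mrpl-44 encodes a large subunit protein related to ribonuclease III, and shares 166 nucleotides of exon (9.4%) with mccc-2 on the same strand, so its level may hold counts of that gene. The product of mrpl-11 sits at the base of the stalk that binds translation factors, and mrpl-18 encodes the counterpart of the bacterial protein that binds the smallest ribosomal RNA. The lowest levels were those of mrps-31, mrpl-37 and mrpl-45, at 9.30, 15.99 and 19.2 CPM per kilobase. These are mitochondria-specific subunits with long exonic sequences in the annotation (2164, 1446 and 2140 nucleotides), and the human counterpart of mrpl-45 lies near the exit of the tunnel through which the new protein leaves. The level of mrps-31 per kilobase of exon was 16.2-fold below that of mrpl-44. The order depended on the length used. Per kilobase of coding sequence mrpl-45 was at 38.3 CPM and ranked 63 of 69, while mrps-31 (17.5) and mrpl-37 (17.8) stayed lowest.

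The smallest unadjusted p of the family belonged to mrps-18A, a gene named for the small subunit. It is 1 of 4 genes with symbols of the S18 family, and its human counterpart is placed in the large subunit despite the name. The gene (WBGene00022583, chromosome III, 8330893 to 8331919, minus strand, WBcel235) had 63.0, 66.5 and 61.9 CPM in population worms and 70.6, 72.4 and 77.3 CPM in solitary worms. Every population library lay below every solitary one. The log2 fold change was -0.20 ± 0.05 (SE; edgeR adjusted p = 0.143, n = 3 each). Of its 811 exonic bases, 195 are shared with iglr-2 on the same strand, and how reads there were divided between the genes is not given in the sources used here.

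The next smallest p belonged to mrps-14 (WBGene00011334, chromosome II, 10240277 to 10242490, minus strand), which encodes a protein of the head of the small subunit. It had 49.9, 53.6 and 50.5 CPM in population worms and 56.4, 59.3 and 59.3 CPM in solitary worms. The conditions did not overlap, with a log2 fold change of -0.18 ± 0.05 (SE; edgeR adjusted p = 0.166), and this gene shares no exon with another protein-coding gene. The mitochondria-specific small subunit genes mrps-23, mrps-25 and mrps-33 were also lower in all 3 population libraries. The gene mrps-23 had 25.4, 27.9 and 27.2 CPM in population worms and 31.1, 31.6 and 29.7 CPM in solitary worms. For mrps-25 the values were 49.3, 52.6 and 47.8 CPM in population worms and 57.6, 54.1 and 55.1 CPM in solitary worms. Their log2 fold changes were -0.20, -0.16 and, for mrps-33, -0.17, with edgeR adjusted p of 0.243, 0.264 and 0.312, so none passed.

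Grouped by symbol number, the mitochondria-specific small subunit genes also held 5 of the 9 higher estimates. The grouping rests on the symbols and not on the place of a protein in the ribosome. In mrps-31, with 21.7, 20.5 and 20.2 CPM in population worms and 18.9, 20.7 and 18.7 CPM in solitary worms, the conditions overlapped (log2 fold change 0.10 ± 0.08, SE; 0.06 without the population library 1). Smaller positive estimates were those of mrps-35 (0.04) and mrps-22 (0.03), both reversing in sign when 1 library was left out. Of this group of 10 genes, 5 had a lower and 5 a higher estimate, with a median of 0.00. In the 19 small subunit genes with a bacterial counterpart, 18 had a lower estimate and the median was -0.10, with 9 lower and a median of 0.01 once the length trend was removed. The groups differ in length, since the median exonic length was 1395 nucleotides in the mitochondria-specific group and 737 in the other.

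Of the small subunit genes chosen for their place in the ribosome, mrps-5 alone had an estimate above 0, and none passed. Its product lies at the entrance of the messenger RNA channel, and the gene had 81.1, 74.5 and 73.2 CPM in population worms and 74.99, 75.6 and 72.5 CPM in solitary worms. These values overlapped (log2 fold change 0.04 ± 0.05, SE; 95% interval -0.07 to 0.14), and without the population library 1 the estimate was -0.01. The gene mrps-12 encodes a protein of the decoding centre and had 20.9, 20.5 and 19.3 CPM in population worms and 21.1, 21.4 and 23.2 CPM in solitary worms. Here the conditions were separate, but the population library 1 and the solitary library 1 lay close together (log2 fold change -0.12 ± 0.07, SE; -0.07 without the solitary library 3, and 0.02 with the length trend removed). The estimates of mrps-2, mrps-7, mrps-11 and mrps-15 were -0.08, -0.10, -0.10 and -0.05, and the conditions did not overlap in mrps-2 and mrps-11. Without the population library 3 the estimate of mrps-7 was -0.04. That of mrps-15 was -0.09 without the solitary library 1 and -0.04 without the solitary library 2.

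In the large subunit, the gene with the lowest fold change was mrpl-36 (WBGene00010783, chromosome III, 9847626 to 9848116, minus strand). It encodes the counterpart of a very small bacterial protein and is the shortest of the family, with 309 exonic nucleotides. It had 17.7, 17.7 and 18.7 CPM in population worms and 19.9, 20.1 and 24.3 CPM in solitary worms. The conditions did not overlap, and the solitary library 3 stood above the rest (log2 fold change -0.25 ± 0.09, SE; edgeR adjusted p = 0.302). Without that library the estimate was -0.15, so its size depended on that library.

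Genes of the factor-binding stalk had estimates below 0 on TMM scaling, and none passed. The stalk base gene mrpl-11 (WBGene00015133, chromosome III, 8717644 to 8718567, plus strand) had 79.2, 85.9 and 83.6 CPM in population worms and 90.2, 92.5 and 91.0 CPM in solitary worms. Its conditions were separate (log2 fold change -0.14 ± 0.04, SE; edgeR adjusted p = 0.217). The stalk gene mrpl-12 had 54.8, 47.9 and 48.0 CPM in population worms and 51.6, 57.6 and 52.1 CPM in solitary worms, which overlap (log2 fold change -0.10 ± 0.07, SE; -0.05 without the solitary library 2 and 0.01 with the length trend removed). The gene mrpl-10, whose bacterial counterpart anchors the stalk, had an estimate of -0.01 ± 0.05 (SE), and its sign changed with the scaling to total counts and with the length trend removed.

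Around the site where peptide bonds form and along the exit tunnel, estimates were likewise on the lower side. For mrpl-16, near the peptidyl transferase centre, the values were 45.4, 47.7 and 45.4 CPM in population worms and 48.2, 53.2 and 51.0 CPM in solitary worms, without overlap (log2 fold change -0.14 ± 0.05, SE). For mrpl-22, in the wall of the tunnel, they were 22.2, 22.6 and 20.8 CPM in population worms and 23.7, 25.1 and 23.5 CPM in solitary worms, also without overlap (-0.14 ± 0.07, SE). The other tunnel wall gene, mrpl-4, had -0.08 (-0.02 without the solitary library 3), and mrpl-23 and mrpl-24, whose bacterial counterparts surround the tunnel exit, had -0.11 and -0.03. The estimate of mrpl-2, near the peptidyl transferase centre, was -0.03. The conditions overlapped in mrpl-4, mrpl-23, mrpl-24 and mrpl-2, and the estimates of mrpl-2, mrpl-23 and mrpl-24 turned slightly positive with the length trend removed.

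Among large subunit genes without a bacterial number, mrpl-51 was the most uniform of those with a small p. It had 64.8, 65.2 and 66.5 CPM in population worms and 71.1, 70.03 and 71.5 CPM in solitary worms (log2 fold change -0.11 ± 0.04, SE; edgeR adjusted p = 0.291), and the conditions were separate. The highest fold change of the family was that of mrpl-45 (WBGene00022493, chromosome III, 1196389 to 1202008, minus strand), with 43.3, 43.6 and 41.3 CPM in population worms and 37.2, 39.2 and 41.7 CPM in solitary worms. The third solitary library fell within the population range (log2 fold change 0.12 ± 0.06, SE; edgeR adjusted p = 0.462), and without the solitary library 1 the estimate was 0.07. Over the 16 genes of this group, 15 had a lower estimate and the median log2 fold change was -0.11, and with the length trend removed 13 stayed lower, with a median of -0.03. Over the 24 large subunit genes numbered as in bacteria, 22 had a lower estimate and the median was -0.08, or 0.01 with the length trend removed.

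The size of the difference followed gene length. Across the 69 genes, the Spearman rho between exonic length and log2 fold change was 0.664, and coding length gave 0.659. Across 10328 other genes with a mean count of at least 100, the rho with exonic length was 0.473. Genes share libraries and are not independent replicates, so these values describe the 6 libraries. The 23 shortest genes (309 to 655 nucleotides) were all lower in estimate, with a median of -0.12 and 13 (56.5%) without overlap between the conditions, and 1010 other genes of the same lengths had a median of -0.15 and 45.1% lower without overlap. The 23 genes of middle length (656 to 989 nucleotides) had a median of -0.10, 22 lower and 13 (56.5%) without overlap, where 1532 other genes had -0.07 and 24.1%. The 23 longest (995 to 2164 nucleotides) had a median of -0.03, 15 lower and 4 (17.4%) without overlap, where 4903 other genes had -0.01 and 8.99%. The other genes had a mean count of at least 100 and were matched on length, not on level. From short to long, their median levels were 38.5, 27.8 and 20.1 CPM per kilobase, against 52.4, 63.9 and 44.9 in the family.

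**Figure D3:**
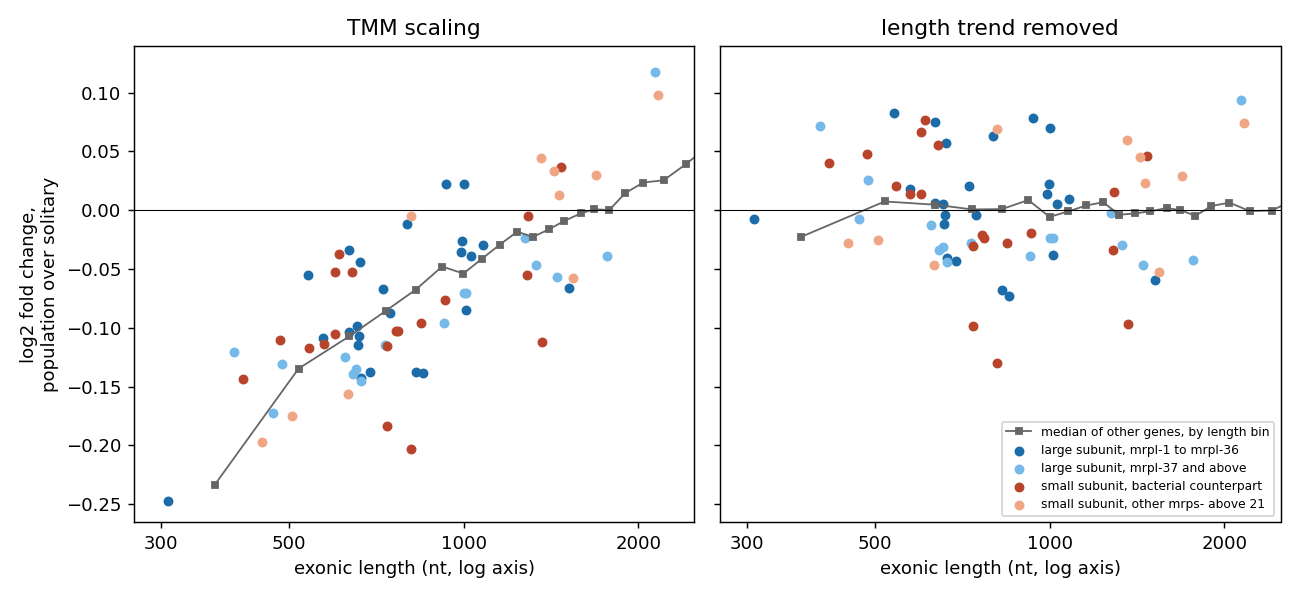
Log2 fold change of population worms over solitary worms against exonic length (log axis) for the 69 genes, coloured by subunit group, with TMM scaling on the left and after removal of each library's length trend on the right; grey squares are medians of other genes in bins of length. On the left the genes run along the grey line with a Spearman rho of 0.664, and on the right they scatter around 0 with a rho of -0.143.

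With a smooth trend on length, fitted on genes outside the family, taken out of each library, the differences in the family centred on 0. The median log2 fold change was then 0.00, with 36 genes lower and 33 higher in population worms, and 68 of 69 estimates lay within 0.1 of 0. The 23 genes of middle length then had a median of -0.02 with 17 lower. No gene passed (edgeR, 0 of 69, and 0 of 18345 genes in all), and 2 had an unadjusted p under 0.05, beside 6.85% of all genes. Groups without overlap fell to 3 lower genes and 1 higher gene (mrpl-35), beside 5.19% and 7.53% of all genes. The 3 lower genes were mrps-14, mrps-18A and mrps-18C. Of the 13 genes with an unadjusted p under 0.05 before, these were also the ones whose estimate stayed above 0.5 of its former size, and the median share that remained was 30.0%. The gene mrps-18A went to -0.13, mrps-14 to -0.10, and mrpl-36, the lowest before, to -0.01.

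The gene mrps-18C, chosen after its values were seen, has 1363 exonic nucleotides and is distinct from the 483-nucleotide gene mrps-18.C. It had 120, 120 and 117 CPM in population worms and 132, 131 and 122.6 CPM in solitary worms. The conditions did not overlap (log2 fold change -0.11 ± 0.04, SE; edgeR adjusted p = 0.313), and the estimate was -0.10 with the length trend removed. The gene mrps-18.C had a log2 fold change of -0.11 and mrps-18B one of -0.10, and with the trend removed they had 0.05 and -0.03.

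Library by library, the family stood lowest in the population library 3 and highest in the solitary library 3. Each gene was set against its own mean over the 6 libraries on the log2 scale. The median of these deviations was -0.02, -0.02 and -0.07 in population worms and 0.00, 0.04 and 0.06 in solitary worms, and the conditions did not overlap. In the population libraries 27, 17 and 6 of the 69 genes lay above their own mean, against 35, 57 and 58 in the solitary libraries. The deviations themselves followed length within libraries, with a Spearman rho of 0.546, 0.149 and 0.418 in population worms and -0.441, -0.081 and -0.578 in solitary worms. The rho was weak in the population library 2 and the solitary library 2, and since each gene was centred on its mean over the same 6 libraries, these values are not independent of each other. With the length trend removed the medians were 0.02, 0.00 and -0.02 in population worms and -0.03, 0.01 and 0.00 in solitary worms, which overlap.

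**Figure D4:**
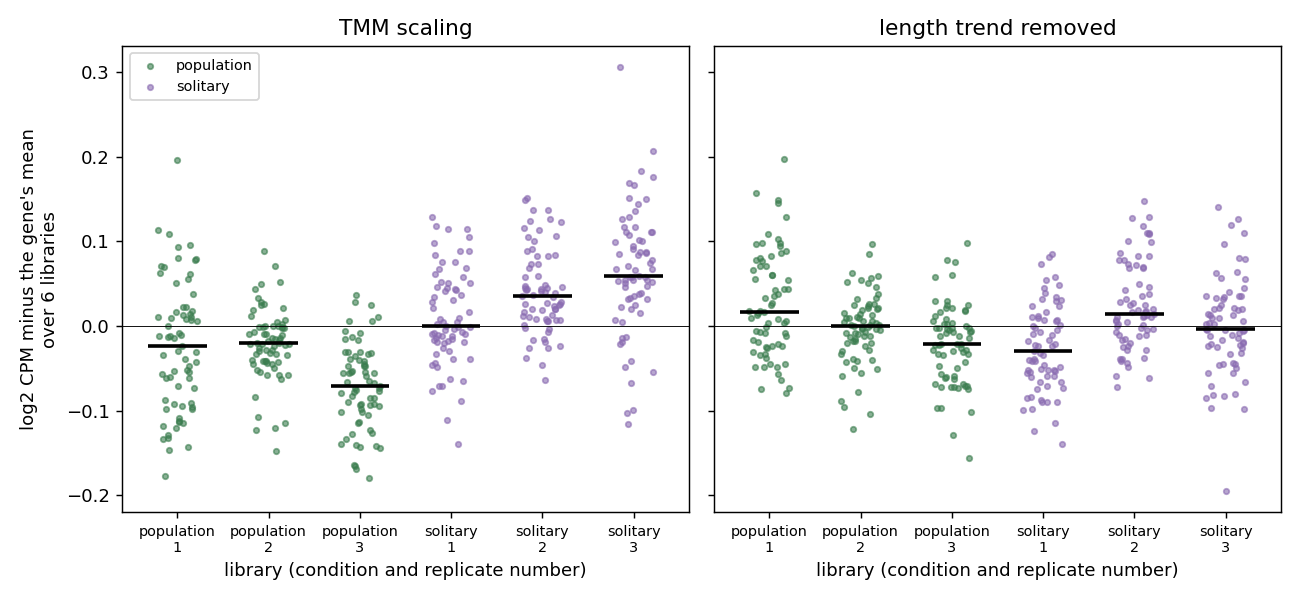
Log2 CPM of each of the 69 genes minus its mean over 6 libraries, by library, with TMM scaling on the left and the length trend removed on the right; points are genes and black bars are medians. On the left the population medians (-0.07 to -0.02) lie below the solitary ones (0.00 to 0.06), and on the right they overlap.

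The genes share features of position that the rule did not use. They lie on chromosomes I (15 genes), II (12), III (22), IV (10) and V (10), and none lies on X, which holds 13.5% of the 19725 protein-coding genes in the table. Chromosome III held 31.9% of the family and 13.2% of protein-coding genes. In 25 genes (36.2%) a protein-coding gene on the same strand ends within 500 nucleotides upstream, beside 17.8% of 19713 protein-coding genes. The gap was 80 to 120 nucleotides in 17 genes (24.6%), beside 4.7% of protein-coding genes, a spacing typical of worm operons, in which neighbouring genes are transcribed together. The gene mrpl-4 (chromosome V, 8467265 to 8468943, plus strand) begins 105 nucleotides after mrps-2, and mrps-22 begins 105 nucleotides after dap-3, the homologue of another small subunit protein. The median log2 fold change was -0.09 in the 25 genes with such a neighbour and -0.08 in the other 44.

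Exons of 19 genes overlap those of another protein-coding gene, 13 on the opposite strand and 6 on the same strand only. The strand setting of the counting is not given in the sources used here, and without strand, reads of overlapping genes cannot be told apart. The 50 genes without such overlap had a median log2 fold change of -0.11 and 43 lower estimates. The 19 genes with overlap had a median of -0.06 and 17 lower.

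The other parts of the mitochondrial gene expression system were read from the same fit. Of 7 translation factor genes found (13 names were listed), 0 passed in edgeR or DESeq2, 0 had an unadjusted p under 0.05, and the median log2 fold change was -0.02, the lowest being tufm-1, the elongation factor Tu of mitochondria, at -0.14. Of 12 protein genes of mitochondrial DNA, which the mitochondrial ribosome translates, 0 passed in edgeR, and the median was -0.02. At an unadjusted p under 0.05 there was 1, beside 11.9% of all tested genes, and 1 passed in DESeq2, beside 2.36%. Of 6 genes for upkeep and transcription of mitochondrial DNA, 0 passed in edgeR (3 at an unadjusted p under 0.05, beside 11.9% of all tested genes, and 1 in DESeq2, beside 2.36%) and the median was 0.05. These 3 were the mitochondrial RNA polymerase rpom-1 (0.14), the single-stranded DNA binding protein mtss-1 (-0.16) and hmg-5 (-0.12). With the length trend removed their estimates were 0.06, -0.05 and -0.05. Their exonic lengths are 3638, 618 and 808 nucleotides. The DNA polymerase polg-1 (0.09, or 0.03 with the length trend removed) was not among them.

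Of 14 genes for import of proteins into mitochondria, 1 passed in edgeR and 4 in DESeq2, beside 0.239% and 2.36% of all tested genes. The edgeR call was tomm-7, a small subunit of the outer membrane translocase, with 29.6, 33.4 and 29.7 CPM in population worms and 42.8, 40.1 and 38.7 CPM in solitary worms. The conditions did not overlap (log2 fold change -0.39 ± 0.07, SE; edgeR adjusted p = 0.0492), and the gene has 288 exonic nucleotides. With the length trend removed the estimate was -0.15 and did not pass, while genes outside the family of 56 to 460 nucleotides kept a median of -0.02. The median of the list was -0.12 before and -0.01 after removal of the trend. Of 8 genes of the mitochondrial unfolded protein response, 0 passed in edgeR and 1 in DESeq2, beside 0.239% and 2.36% of all tested genes. At an unadjusted p under 0.05 in edgeR there was 1, beside 11.9%. Their median log2 fold change was -0.09 with 6 lower, and -0.06 with 7 lower once the length trend was removed. The mitochondrial chaperone hsp-6, the usual reporter gene of that response, had 622, 611 and 584 CPM in population worms and 732, 764 and 528 CPM in solitary worms, which overlap.

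The cytosolic ribosomal protein genes are the closest relatives in function and differed more on TMM scaling. Of 78 genes, 11 passed in edgeR, all 11 lower in population worms (0.233% of all tested genes passed in that direction). In DESeq2 46 passed, beside 2.36% of all tested genes. A lower estimate was found in 77, and the median log2 fold change was -0.19. With the length trend removed, 0 passed in edgeR. At an unadjusted p under 0.05 there were then 7, beside 6.85% of all genes, and 7 were lower without overlap, beside 5.19%. In estimate 72 of 78 stayed lower, with a median of -0.06. These genes are shorter, their median being 532 exonic nucleotides where that of the mitochondrial family is 763.

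**Figure D5:**
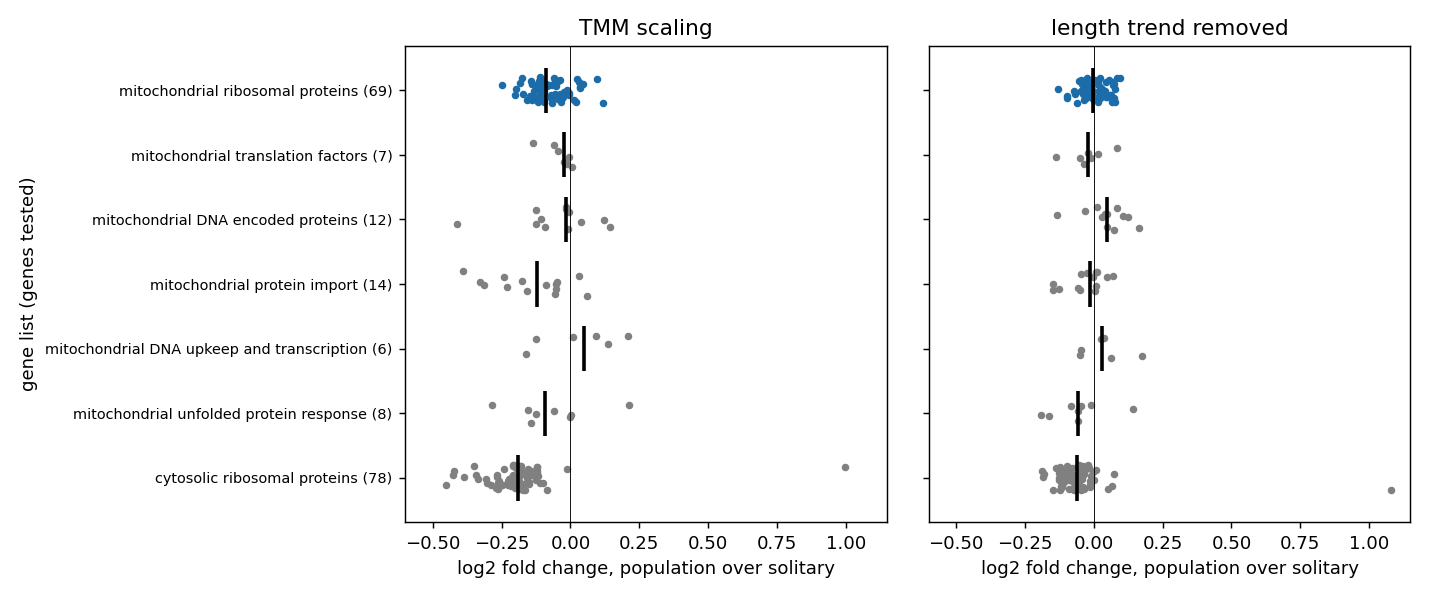
Log2 fold change of population worms over solitary worms for the genes of 7 lists, with TMM scaling on the left and the length trend removed on the right; points are genes, black bars are medians, and the number of genes tested follows each name. With TMM scaling the medians run from -0.19 (cytosolic ribosomal proteins) to 0.05 (mitochondrial DNA upkeep and transcription), and with the trend removed the mitochondrial ribosomal median is 0.00; the lone point near 1 is rpl-42, with a mean of 0.0710 CPM in population worms and 0.0355 CPM in solitary worms.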

How the data were processed

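The paper states that messenger RNA was enriched with oligo(dT) beads before the libraries were made. The part of this step in the counts of mitochondrial DNA transcripts was not tested. The authors trimmed reads with Trimmomatic 0.36, aligned them to WBcel235 with STAR 2.5.2b, and counted unique reads in exons with featureCounts of Subread 1.5.2. The deposited counts are per gene and not normalized. The authors' second table, of normalized values, was not used here. Symbols came from a gene name table and coordinates and lengths (the union of a gene's exons) from the Ensembl annotation of WBcel235. The annotation release used for counting is not given in the sources used here.

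Genes with at least 10 counts summed over 6 libraries were tested with edgeR 4.0.16 in R 4.3.3, using TMM scaling, a robust quasi-likelihood fit on growth condition and Benjamini-Hochberg adjustment over all 18428 genes. DESeq2 1.42.0 was an alternative. The length trend was a lowess curve (span 0.3) of each library's log2 values on log2 exonic length, entered as an offset. It was fitted on genes with a mean count of at least 100, leaving out the family and the cytosolic ribosomal protein genes. Other alternatives were other scalings and count minimums, the replicate number as a block, and each library left out. The labels give no batch. Scripts were tested on simulated data.

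The members and lists were chosen with earlier results of these data known. Genes of the family named by rule were those with an adjusted p under 0.05, the 6 smallest p, and the 5 lowest and 5 highest fold changes. The rule also took the 3 highest and 3 lowest levels and members with a textbook place in the ribosome. The genes mrps-18C, mrpl-35, mrps-18B and mrps-18.C were named outside this rule. No such rule fixed which genes of the other lists were named. The 12 protein genes of mitochondrial DNA were taken by chromosome.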

Additional observations from a re-analysis of the deposited data

How the results depend on the processing

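The count of all tested genes that passed (44) depended on the processing. It was 435 with DESeq2, 7 with scaling to total counts, 745 with no count minimum, 17 with edgeR's own filter on low counts, 24 with the replicate number as a block, 0 with the length trend removed, with or without that block, and 2 when an absolute log2 fold change above 1 was also asked for. Leaving out each library in turn gave 0 to 391, the highest without the solitary library 3. Genes of the family that passed numbered 0 in edgeR, 1 with DESeq2 (mrps-18A) and 2 with no count minimum (mrps-14, adjusted p = 0.0423, and mrps-18A, adjusted p = 0.00532), and 0 without each library in turn.

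The median log2 fold change of the family (-0.09) was 0.00 (-0.0038) with the length trend removed and -0.0027 with the replicate block added, and lay between -0.10 and -0.07 without each library in turn. With the trend removed and each library left out, an alternative chosen after seeing the data, it was -0.0144, 0.0039 and 0.0147 without the population libraries 1, 2 and 3 and -0.0172, 0.0091 and 0.0115 without the solitary libraries 1, 2 and 3. Genes lower without overlap between conditions numbered 30, beside 9.83% of all tested genes, and 3 with the length trend removed, beside 5.19%. They numbered 12 with scaling to total counts and 24 among the 50 genes that share no exon. Without each library in turn the count was 30 to 38, where separation is easier to reach because fewer libraries are compared. Shares over all genes under total counts or with a library left out are not given here. Scaling to total counts moved the median of all tested genes to 0.03.

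Of 29 named genes, 17 kept their direction in all 14 alternatives each. With the length trend removed, and with the replicate block added, the log2 fold change was 0.0632 and 0.0639 for mrpl-10, 0.0052 and 0.0045 for mrpl-12, 0.0058 and 0.0057 for mrpl-18, 0.0093 and 0.0094 for mrpl-2, 0.0181 and 0.0184 for mrpl-23, 0.0223 and 0.0214 for mrpl-24, and 0.0208 and 0.0203 for mrps-12. With scaling to total counts it was 0.0162 for mrpl-10 and 0.0013 for mrpl-24. Without 1 library, the sign also turned in mrpl-10 (-0.0494 to 0.0120 over the libraries left out), mrpl-2 (-0.0748 to 0.0097), mrpl-24 (-0.0618 to 0.0118), mrpl-37 (-0.1837 to 0.0099), mrpl-44 (-0.1034 to 0.0052), mrps-22 (-0.0114 to 0.0669), mrps-35 (-0.0014 to 0.0712) and mrps-5 (-0.0137 to 0.0649). Apart from the alternatives' own construction, the causes were not tested.

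The replicate numbers did not pair the libraries. Deviations from the condition means over 10491 genes correlated at 0.0858, -0.249 and -0.246 between libraries 1, 2 and 3 of the conditions. With the replicate number as a block the family's median was -0.0858, and 0 of its genes passed. The lowest count of a gene of the family in a library was 795, and the standard errors, from 0.0392 to 0.101 on the log2 scale (median 0.0563), limited what differences could be seen.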

Other observations

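The transcripts of mitochondrial DNA stood higher in the population library 1 than in the other population libraries. Their summed level was 8957, 7287 and 7286 CPM in population worms and 7731, 8199 and 7735 CPM in solitary worms. The population library 1 was the highest of its condition for all 12 genes and the highest of all 6 libraries for 9 of them. For ND4L it was level with the population library 3 (8.674 against 8.666 CPM). Among the solitary libraries none was highest for all 12 genes, but library 2 had the highest sum. Library 2 was highest there for ND6, ND4L, ND1, ND2, CYTB, COX3, COX1 and COX2 (791, 860 and 738 CPM for COX2). Library 3 was highest for ATP6, ND4, ND3 and ND5 (198, 209 and 247 CPM for ND5). For ATP6, a subunit of the ATP synthase, the values were 916, 706 and 680 CPM in population worms and 813, 831 and 834 CPM in solitary worms. In the same population library 1 the median deviation of the mitochondrial ribosomal protein genes was -0.02 on the log2 scale, and 27 of 69 lay above their own mean. With the length trend removed these values were 0.02 and 42 of 69.

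Of the 14 import genes, 9 were lower without overlap between the conditions, beside 9.83% of all tested genes. Among 1010 other genes of 309 to 655 nucleotides with a mean count of at least 100, the share was 45.1%. The genes tin-10, ddp-1 and tin-13, with the smallest p in edgeR after tomm-7, were among the 9 and did not pass. The intermembrane space chaperone gene tin-10 had 35.1, 39.7 and 36.5 CPM in population worms and 47.8, 45.6 and 46.6 CPM in solitary worms (log2 fold change -0.33, edgeR adjusted p = 0.0512), and -0.15 with the length trend removed. The genes ddp-1 (-0.31) and tin-13 (-0.23) had edgeR adjusted p of 0.0994 and 0.0885, and estimates of -0.13 and -0.05 with the length trend removed. All 3 have between 404 and 427 exonic nucleotides. With the trend removed, genes outside the family of 56 to 460 nucleotides kept a median of -0.02. Other short genes of the 9, namely tin-9.1, tomm-22 and dnj-21, then had estimates of -0.02, 0.01 and 0.00.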
